A study of Mus musculus with 6 samples.

Results

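Malat1, Neat1, Meg3, Miat, Rian, Mirg and Snhg11, long noncoding RNAs known for staying in the cell nucleus, were followed across 6 libraries of amygdala neurons. They were chosen by name as a gauge of nuclear against cytoplasmic RNA, and make up 7 of the 35976 genes in the counts. All 7 names were found, and 6 of them passed the filter on low counts and were tested; Mirg did not. The libraries came from male C57BL/6J mice that received an adeno-associated virus in the amygdala, in which the GfaABC1D promoter, active in astrocytes, drove Cas9. In the control group, sgRosa (n = 3), the guide targeted the Rosa26 locus, and in the other group, sgEgfr (n = 3), it targeted Egfr, the epidermal growth factor receptor gene. In both groups the virus was expressed for more than 2 weeks, after which the mice were held in restraint tubes on 7 days, conditioned to fear on 1 day and given extinction training on 3 days. Neurons were then enriched with magnetic beads from papain-digested tissue, whereas the promoter targets astrocytes. The labels give no ages and do not say that each library came from its own animal, and p-values then refer to variation among these libraries, which may be technical.

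Most messenger RNAs are exported to the cytoplasm after splicing, whereas some long noncoding RNAs stay near their site of transcription or in nuclear bodies. Malat1 collects in nuclear speckles, bodies rich in splicing factors, and Neat1 is the scaffold of paraspeckles, bodies that hold RNA-binding proteins such as NONO and SFPQ. Miat (also called Gomafu) forms its own nuclear domains in neurons and binds splicing factors. Meg3, Rian and Mirg are transcribed from the maternal chromosome of the imprinted Dlk1-Dio3 domain; Rian is a host of small nucleolar RNAs (snoRNAs) and Mirg a host of microRNAs. Snhg11 is a snoRNA host gene with high expression in neurons.

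Malat1 and Neat1 are neighbours on chromosome 19 (mm10, the GRCm38 assembly). Malat1 spans 5795690 to 5802672 and Neat1 spans 5824708 to 5845478, both on the minus strand and 22.0 kb apart, and the long transcript of each is a single exon. Their 3′ ends are shown because neither long transcript ends in a conventional poly(A) tail. Instead, U-rich stretches fold with an A-rich stretch into a triple helix that protects the end. The labels do not say whether poly(A) selection was used. Capitals below mark shared stretches only, not the whole helix. The longest stretch shared by the last 400 bases of both transcripts, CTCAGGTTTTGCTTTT (16 bases), and the longest shared one after it, AAAAAGCAAAA (11 bases), are in capitals, in GENCODE transcript sequence as DNA letters.
Malat1, transcript positions 6592 to 6691: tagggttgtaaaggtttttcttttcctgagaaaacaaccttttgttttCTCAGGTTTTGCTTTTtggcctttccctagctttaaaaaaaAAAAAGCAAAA
Neat1, transcript positions 20672 to 20771: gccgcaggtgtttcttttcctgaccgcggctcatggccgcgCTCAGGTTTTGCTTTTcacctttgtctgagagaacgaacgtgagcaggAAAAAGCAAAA
Of 43368 annotated 3′ ends of that length, 1 for each gene with a long enough transcript, 2 held the first stretch on either strand (0.00461%). Those 2 are Malat1 and Neat1 themselves, which hold both stretches by construction. The second was held on either strand by 111 ends (0.256%). In Neat1 the A-rich stretch is the very end of the annotated transcript, and in Malat1 another 292 bases are annotated after it.

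Miat (chromosome 5, 112213228 to 112229395, minus strand) is shown by the repeat through which it binds the splicing factor SF1, TACTAAC, which resembles the branch point that SF1 recognises in introns. The 150 bases with the most copies follow, with the copies in capitals.
Miat, transcript positions 4520 to 4669: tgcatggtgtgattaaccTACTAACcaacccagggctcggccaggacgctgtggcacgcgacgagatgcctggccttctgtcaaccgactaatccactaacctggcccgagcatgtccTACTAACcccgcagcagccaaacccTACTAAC
The window, picked over all start positions, holds 3 copies. Of 681707 windows of that length cut end to end from the longest transcript of every gene, 6 hold at least 3. Such cuts can split a cluster, so the comparison is not like for like. Of the cut windows 0.706% hold 1 or more copies on either strand. The whole Miat transcript has 6 copies on its own strand and 0 on the other. Neat1 has 1, Meg3 has 1 on the opposite strand only, and the transcripts of Malat1, Rian, Mirg and Snhg11 have 0 on either strand.

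Meg3, Rian and Mirg follow one another on the plus strand of chromosome 12, at 109541001 to 109571726, 109603940 to 109661716 and 109729764 to 109749460, with gaps of 32.2 kb and 68.0 kb. Snhg11 lies on chromosome 2, plus strand, at 158375638 to 158386145, and is typed as protein-coding by GENCODE but as a long noncoding RNA by RefSeq. Exons of Malat1, Meg3 and Miat overlap exons of a predicted gene on the opposite strand, over 453, 1228 and 2260 bases. As no source states whether the counting used strand, reads of those opposite genes cannot be told apart from the members' own.

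Total counts lay between 2348897 and 10152812 per library, and 3 counts, taken as the floor of detection in 1 library, corresponded to 0.270 to 1.25 CPM (counts scaled to a common library size, with TMM factors). Egfr itself had 1 to 26 counts in the libraries (log2 fold change -0.64, SE 1.01). Such counts, from libraries enriched for neurons that also hold RNA of other cells, do not check the edit in astrocytes. The label of neurons was checked by markers: all 16 pan-neuronal markers had more than 3 counts in every library, with summed levels of 2764 to 6547 CPM in sgRosa and 3964 to 6369 CPM in sgEgfr. All 12 oligodendrocyte markers were present as well, with larger sums, of 24744 to 73269 CPM in sgRosa and 22726 to 58205 CPM in sgEgfr. Of 10 astrocyte markers 9 had more than 3 counts in every library, with sums of 856 to 1399 CPM in sgRosa and 546 to 1606 CPM in sgEgfr. Those of 8 endothelial markers were 1151 to 4545 CPM in sgRosa and 1842 to 2149 CPM in sgEgfr. Of the 8 choroid plexus markers, 3 were at 0 in at least 1 library, and the mean log2 CPM of that list was 6.86 in sgRosa replicate 3 and 6.57 in sgEgfr replicate 1 against 0.61 to 2.09 in the other 4.

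The 7 RNAs differ widely in abundance. Per kilobase of the longest transcript that GENCODE pairs with RefSeq (for Rian, the longest of all, as none is paired), levels over the 6 libraries were 332 to 1672 CPM per kilobase for Malat1, 13.6 to 92.8 for Snhg11, 8.91 to 64.2 for Meg3, 4.15 to 14.1 for Neat1, 2.23 to 4.66 for Rian, 0.353 to 2.40 for Miat and 0.343 to 2.10 for Mirg. Malat1 was above every other member in every library, and each later pair of neighbours in this order overlapped. The order depends on the isoform assumed: with the short transcript of Neat1 (3004 bases) its range would be 28.7 to 97.5, and with the shortest paired transcript of Meg3 (1896 bases) 68.4 to 493, which overlaps the range of Malat1. Counts per gene do not separate isoforms, so the short Neat1 RNA and the long one that builds paraspeckles could not be told apart.

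Between the groups, the question is whether neuronal RNA of stressed mice differs when astrocytes carry a guide against Egfr in place of Rosa26. Over all 6 libraries the nuclear long noncoding RNAs had no common direction, but this rests on 1 library. Malat1, Rian and Neat1 had negative log2 fold changes, Snhg11, Meg3 and Miat positive ones, and the range of the sgEgfr libraries overlapped that of sgRosa for all 7. Without sgEgfr replicate 3 all 6 tested members were negative, with a median log2 fold change of -0.79, and by limma-voom 1 was positive and 5 negative. By edgeR's quasi-likelihood test 0 of the 6 tested members passed an adjusted p of 0.05, as did 0 of the 13159 genes tested (0%), and 0 members had an unadjusted p under 0.05, where 6.16% of all genes did (3.23% higher and 2.93% lower in sgEgfr). Limma-voom and DESeq2 also called 0 members at an adjusted p of 0.05, though DESeq2 gave no adjusted p for Miat. At an unadjusted p under 0.05 each of them had 1 member, which was Malat1 in both (limma-voom adjusted p = 0.309, DESeq2 adjusted p = 0.632), beside 15% of all genes by limma-voom and 5.99% by DESeq2. Groups that do not overlap were seen in 13.4% of all genes tested (5.8% higher and 7.6% lower in sgEgfr). The median log2 fold change of the 6 members was -0.08, beside -0.04 over all genes tested, of which 46.3% were positive. In bulk libraries, fewer cells of a type and less RNA per cell cannot be told apart.

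**Figure D1:**
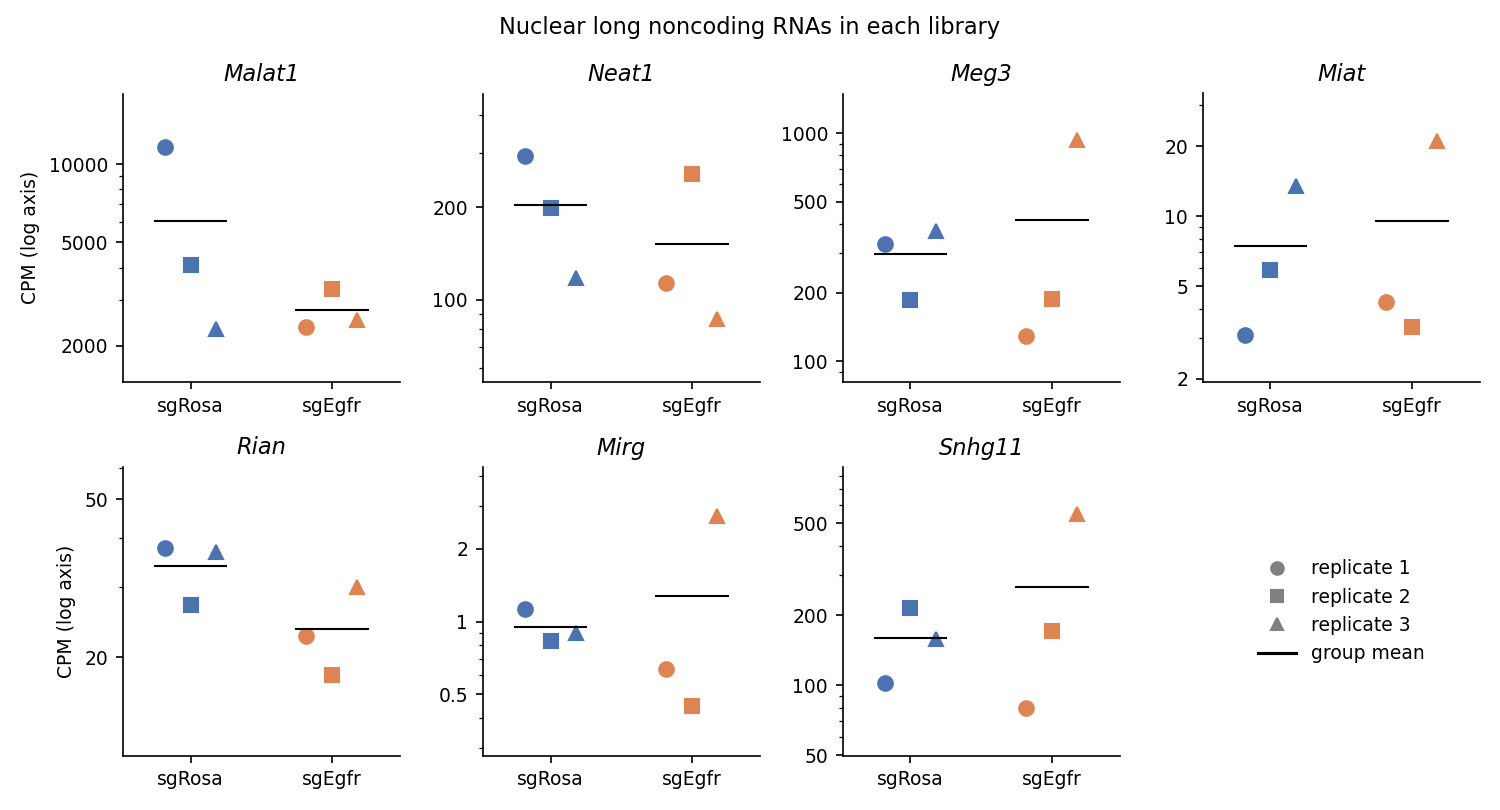
CPM of each of the 7 RNAs (log axis, scaled per panel) in the 3 sgRosa (blue) and 3 sgEgfr (orange) libraries, 1 point per library with its replicate number as the symbol and the group mean as a line. Malat1 stands highest in sgRosa replicate 1 (11676 CPM), whereas Meg3, Miat, Mirg and Snhg11 stand highest in sgEgfr replicate 3.

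Malat1, the most abundant member, was at 11676, 4102 and 2322 CPM in sgRosa replicates 1, 2 and 3 and at 2365, 3322 and 2524 CPM in sgEgfr replicates 1, 2 and 3. The sgEgfr libraries lay close together, inside the sgRosa range, and sgRosa replicate 1 stood far above the other 5. The group means were 6033 ± 4967 and 2737 ± 513 CPM (SD, n = 3 each). The log2 fold change was -1.14 (SE 0.61, 95% interval -2.55 to 0.26; edgeR adjusted p = 0.783, and 0.159 to 0.999 over all alternatives). Without sgRosa replicate 1 it was -0.22, and with the mean of pan-neuronal markers as a covariate -0.21. It was -1.36 without sgRosa replicate 2 and -1.54 without sgRosa replicate 3. Replicate 1 of sgRosa also had the largest share of counts from mitochondrially encoded transcripts, 29.8% against 10.3% to 15.7% in the other 5. The part of that share in the Malat1 value was not tested.

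Neat1 was at 293, 198 and 118 CPM in sgRosa and at 113, 257 and 86.1 CPM in sgEgfr. The highest value was again in sgRosa replicate 1, but sgEgfr replicate 2 came next, and the groups overlapped throughout. The means were 203 ± 87.7 and 152 ± 92.1 CPM (SD, n = 3 each), with a log2 fold change of -0.41 (SE 0.48; edgeR adjusted p = 0.882). It was -0.03 without sgRosa replicate 1, -0.12 without sgEgfr replicate 3 and -1.02 without sgEgfr replicate 2. The ratio of Malat1 to Neat1 counts within a library, which does not depend on scaling, was 39.8, 20.7 and 19.7 in sgRosa and 21.0, 12.9 and 29.3 in sgEgfr. The ratio of these chromosome 19 neighbours was highest in sgRosa replicate 1 and lowest in sgEgfr replicate 2, and the groups overlapped.

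Meg3 was at 328, 186 and 371 CPM in sgRosa and at 130, 188 and 934 CPM in sgEgfr. One library, sgEgfr replicate 3, was above all others, while sgEgfr replicate 1 was below all sgRosa libraries and sgEgfr replicate 2 level with the lowest of them. The means were 295 ± 97.1 and 417 ± 449 CPM (SD, n = 3 each), and the log2 fold change of 0.50 (SE 0.71; edgeR adjusted p = 0.902) turned to -0.87 without sgEgfr replicate 3. Rian, the next gene of the domain, was the least variable member. It was at 37.7, 27.1 and 36.8 CPM in sgRosa and at 22.6, 18.1 and 30.0 CPM in sgEgfr, so that sgEgfr replicate 3 alone among the sgEgfr libraries lay above the lowest sgRosa library. The means were 33.9 ± 5.85 and 23.6 ± 6.02 CPM (SD, n = 3 each), and the log2 fold change was -0.53 (SE 0.27, 95% interval -1.15 to 0.08; edgeR adjusted p = 0.781). Rian was negative in every alternative run, from -0.73 to -0.35, and past the threshold in none of them (adjusted p from 0.387 to 0.999).

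Mirg, which hosts a cluster of microRNAs, had 4, 2 and 10 counts in sgRosa replicates 1 to 3 and 3, 2 and 7 in those of sgEgfr. These were 1.12, 0.835 and 0.900 CPM in sgRosa and 0.640, 0.446 and 2.73 CPM in sgEgfr. Its group totals of 16 and 12 counts have exact 95% Poisson intervals of 9.15 to 26.0 and 6.20 to 21.0. The totals are not scaled for depth, so the intervals do not compare levels between the groups. Depth limits any comparison of Mirg. Fitted without the filter on low counts, its log2 fold change was 0.24 (edgeR adjusted p = 0.959). The Poisson intervals cover counting error only.

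Within the Dlk1-Dio3 domain the ratio of Meg3 to Rian counts was 8.70, 6.85 and 10.1 in sgRosa and 5.74, 10.4 and 31.1 in sgEgfr. The ratio was highest in sgEgfr replicate 3, with an exact 95% interval of 24.8 to 39.6 that covers counting error only, not the spread between libraries. The ratio of Meg3 to Mirg counts was too imprecise to order the libraries, with overlapping counting intervals in all 6. From Dlk1 to Dio3 the 3 RNAs took 10484 counts over the 6 libraries, 96.0% of all counts of the domain's rows. The 61 microRNA rows there held 28 counts in all and the 7 snoRNA rows 51. In GENCODE some of these small RNAs share exon bases with their host on the same strand, for example Mir134 with Mirg (71 bases). Their counts were not taken as levels of the mature small RNAs. Of the domain's coding genes, Dlk1, which encodes a Notch-related membrane protein, had a log2 fold change of -0.62 (SE 0.62), and the synaptic gene Begain, next to the domain, of -0.05 (SE 0.30). Rtl1, whose mRNA comes from the paternal chromosome, had 4 counts in 1 library and 0 in the other 5, which allows up to 0.640 to 1.25 CPM in each of those 5, and neither it nor Dio3, a thyroid hormone deiodinase gene, passed the filter.

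Snhg11 was at 103, 216 and 159 CPM in sgRosa and at 79.8, 171 and 544 CPM in sgEgfr. As with Meg3, sgEgfr replicate 3 was the highest and sgEgfr replicate 1 the lowest of all 6. The means were 159 ± 56.9 and 265 ± 246 CPM (SD, n = 3 each), with a log2 fold change of 0.73 (SE 0.65; edgeR adjusted p = 0.841), which was -0.32 without sgEgfr replicate 3. Miat was at 3.09, 5.85 and 13.4 CPM in sgRosa and at 4.27, 3.35 and 21.0 CPM in sgEgfr. Replicate 3 was the highest library in either group, and the log2 fold change was 0.25 (SE 0.79; edgeR adjusted p = 0.956). Without sgEgfr replicate 3 it was -0.97 and without sgRosa replicate 3 it was 1.05. With 11 to 149 counts per library, Miat was the thinnest of the tested members.

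**Figure D2:**
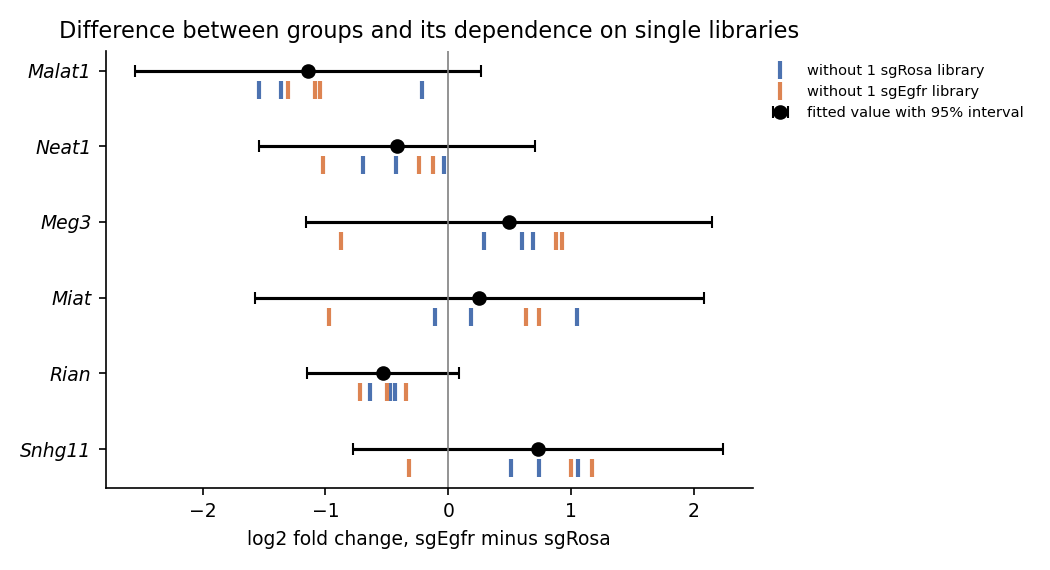
Log2 fold change of the 6 tested RNAs, sgEgfr minus sgRosa (black points, 95% intervals from edgeR's quasi-likelihood fit), with ticks for the value after leaving out 1 sgRosa (blue) or 1 sgEgfr (orange) library. All 6 intervals include 0. Meg3, Miat and Snhg11 change sign when sgEgfr replicate 3 is left out. Malat1 moves to -0.22 when sgRosa replicate 1 is left out and to -1.54 when sgRosa replicate 3 is left out.

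Each of those patterns was set beside cell type markers measured in the same libraries. Oligodendrocyte markers averaged 10.83, 10.11 and 8.76 log2 CPM in sgRosa and 9.13, 9.85 and 8.26 in sgEgfr, and the 3 libraries highest in these markers (sgRosa replicates 1 and 2 and sgEgfr replicate 2) were also the 3 highest in Malat1 and in Neat1. The same 3 libraries were also the highest in other long noncoding RNAs described in the nucleus (means 4.76, 4.63 and 4.44 log2 CPM). They were the highest as well in mRNAs with detained introns (7.16, 6.96 and 6.99). The same held for snoRNA host genes whose spliced RNA reaches the cytoplasm (3.783, 3.190 and 2.765, against 2.598 to 2.756 in the others). The pattern was thus not limited to lists of nuclear RNA. Malat1 ranged over 2.33 log2 units between libraries, but over 1.20 when expressed relative to the oligodendrocyte mean. Neat1 ranged over 1.76 and 0.81. Relative to the mean of cytosolic ribosomal protein genes the ranges narrowed as well, to 1.75 for Malat1 and 1.28 for Neat1. Relative to the oligodendrocyte mean, Malat1 had group means of 2.33 ± 0.40 in sgRosa and 2.32 ± 0.64 in sgEgfr. Those of Neat1 on the oligodendrocyte scale were -2.33 ± 0.40 and -1.99 ± 0.27 (SD, n = 3 each). Relative to the pan-neuronal mean the ranges were wider, 3.48 for Malat1 and 3.03 for Neat1. The part of oligodendrocyte RNA in these values was not tested.

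Pan-neuronal markers averaged 6.71, 6.77 and 7.85 log2 CPM in sgRosa and 7.69, 7.24 and 7.98 in sgEgfr, with Rbfox3, the NeuN gene, at a log2 fold change of 0.52 (SE 0.48). Meg3, Snhg11 and Miat were highest in sgEgfr replicate 3, the library with the highest pan-neuronal mean and the lowest oligodendrocyte, astrocyte (4.40) and microglia (1.81) means. Relative to the pan-neuronal mean, Meg3 still ranged over 2.56 log2 units (2.84 before), Snhg11 over 2.48 (2.76 before) and Miat over 1.91 (2.61 before). The group differences on that scale were -0.53 for Meg3, -0.17 for Snhg11 and -0.42 for Miat, each smaller than the larger of its group SDs (1.29, 1.25 and 1.07). For Rian the difference was -1.06, with levels of -1.45, -1.98 and -2.64 in sgRosa and -3.17, -3.04 and -3.05 in sgEgfr. All 3 sgEgfr libraries lay below the sgRosa libraries on this scale, as in 9.12% of all genes tested, and no test was run on it. Relative to ribosomal protein genes the difference for Rian was -0.09, and relative to oligodendrocyte markers 0.29, both with overlapping groups. With the pan-neuronal mean as a covariate, Rian had a log2 fold change of -0.73 (SE 0.26; edgeR adjusted p = 0.400). The part of neuronal RNA in these values was not tested.

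**Figure D3:**
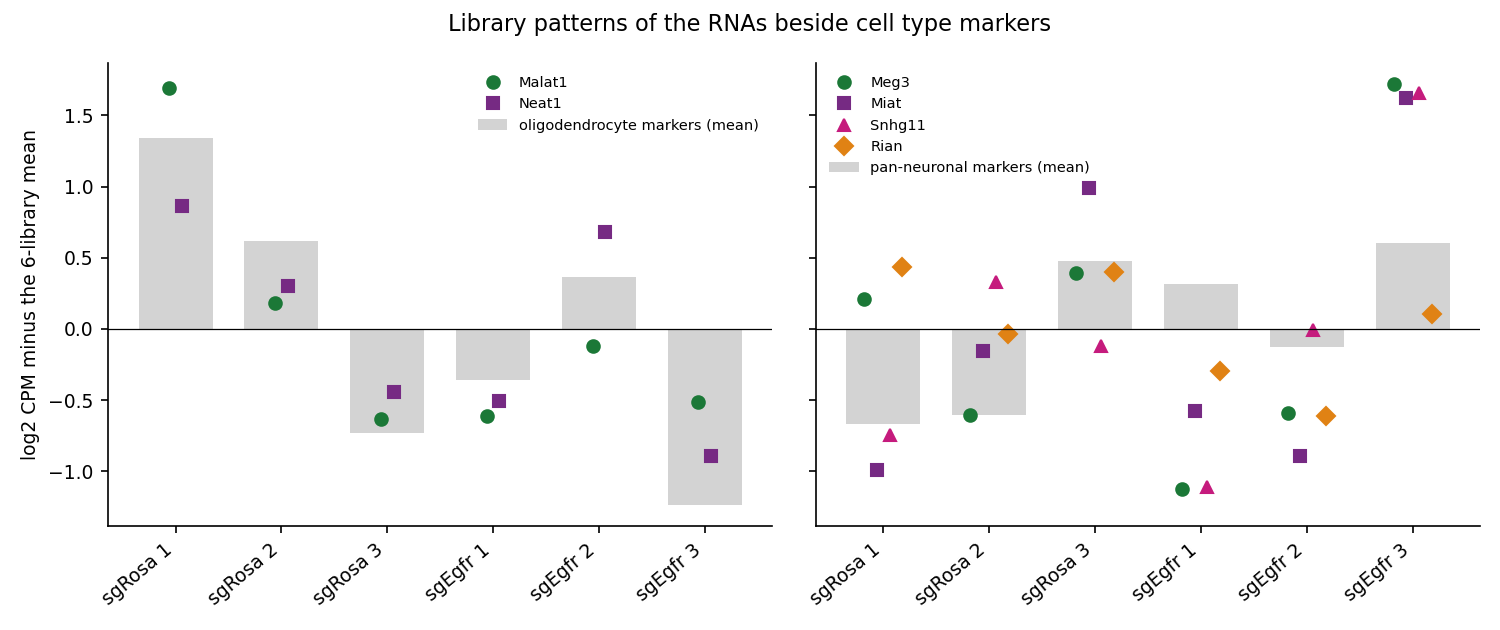
Log2 CPM of each RNA in each library (points), and the mean of a marker list (grey bars), each minus its mean over the 6 libraries: Malat1 and Neat1 beside oligodendrocyte markers (left) and Meg3, Miat, Snhg11 and Rian beside pan-neuronal markers (right). Malat1 and the oligodendrocyte bar are both highest in sgRosa replicate 1, and Meg3, Miat and Snhg11 exceed the pan-neuronal bar in sgEgfr replicate 3.

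Likeness between library patterns was measured as the mean absolute difference between log2 CPM values centred on their 6-library mean, so that 0 is the same pattern. Of the 15 pairs among the tested members, the closest were Malat1 with Neat1 (0.40), Meg3 with Snhg11 (0.51) and Meg3 with Miat (0.53), and the least alike was Neat1 with Miat (1.32). Among 5072 genes with a mean of at least 5 log2 CPM, the patterns closest to Malat1 were those of the acyltransferase gene Agpat4 (0.12) and of Rsrp1 (0.16), which encodes an arginine- and serine-rich protein. Closest to Neat1 were Txndc16 (0.14) and Arrdc3 (0.15), and to Rian Tpgs1 (0.05) and the histone gene H2afz (0.09). The sphingomyelinase gene Smpd4 was the closest to Meg3 (0.44), Miat (0.27) and Snhg11 (0.36). The next were the proton pump gene Atp6v0c for Meg3 (0.47), the sodium pump gene Atp1b1 for Miat (0.35) and Zcchc12 for Snhg11 (0.38).

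As a gauge of nuclear RNA, the share of all counts taken by the 7 RNAs was 1.07%, 0.483% and 0.331% in sgRosa and 0.263%, 0.408% and 0.422% in sgEgfr. The 95% Wilson intervals of these shares were narrow, for example 1.06% to 1.08% in sgRosa replicate 1 and 0.258% to 0.267% in sgEgfr replicate 1, and cover counting error only. Malat1 made up 76.8% to 93.8% of the sum in sgRosa and 60.9% to 87.1% in sgEgfr. The group means were 0.627% ± 0.389 and 0.364% ± 0.0882 (SD, n = 3 each), a difference of -0.263 percentage points, within the spread of the sgRosa libraries. Leaving out sgRosa replicate 1 gave -0.0427, leaving out sgRosa replicate 3 gave -0.411, and taking mitochondrially encoded genes out of the totals gave -0.399. Without Malat1 the 6 other RNAs took 0.0657%, 0.0646% and 0.0765% in sgRosa and 0.0338%, 0.0657% and 0.165% in sgEgfr, where the sgEgfr values lay on both sides of the sgRosa ones.

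A second gauge set the mean log2 CPM of the 6 tested RNAs against that of 79 cytosolic ribosomal protein genes, whose mRNAs are abundant in the cytoplasm. The difference was 1.15, 1.50 and 1.58 log2 units in sgRosa and 1.02, 1.33 and 2.50 in sgEgfr. In sgEgfr, 2 libraries fell within or below the sgRosa range and replicate 3 lay above it. The means were 1.41 ± 0.23 and 1.62 ± 0.78 (SD, n = 3 each), so the group difference of 0.21 was smaller than the spread in sgEgfr, and it was -0.23 without sgEgfr replicate 3. Both terms of this gauge had lower means in sgEgfr: 7.17 ± 0.12 in sgRosa and 6.94 ± 0.67 in sgEgfr for the RNAs, and 5.76 ± 0.34 and 5.33 ± 0.15 for the ribosomal protein genes (log2 CPM, SD, n = 3 each). Of the ribosomal protein genes 77 of 79 had negative log2 fold changes (median -0.46), beside 53.7% of all genes tested. By edgeR 0 passed, and 20 had an unadjusted p under 0.05 with a lower level in sgEgfr, beside 2.93% of all genes. In 37 every sgEgfr library was below every sgRosa library, beside 7.6% of all genes. The 2 gauges thus ranked the libraries differently: sgRosa replicate 1 was the highest by share of counts and the fifth of 6 by the second gauge.

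**Figure D4:**
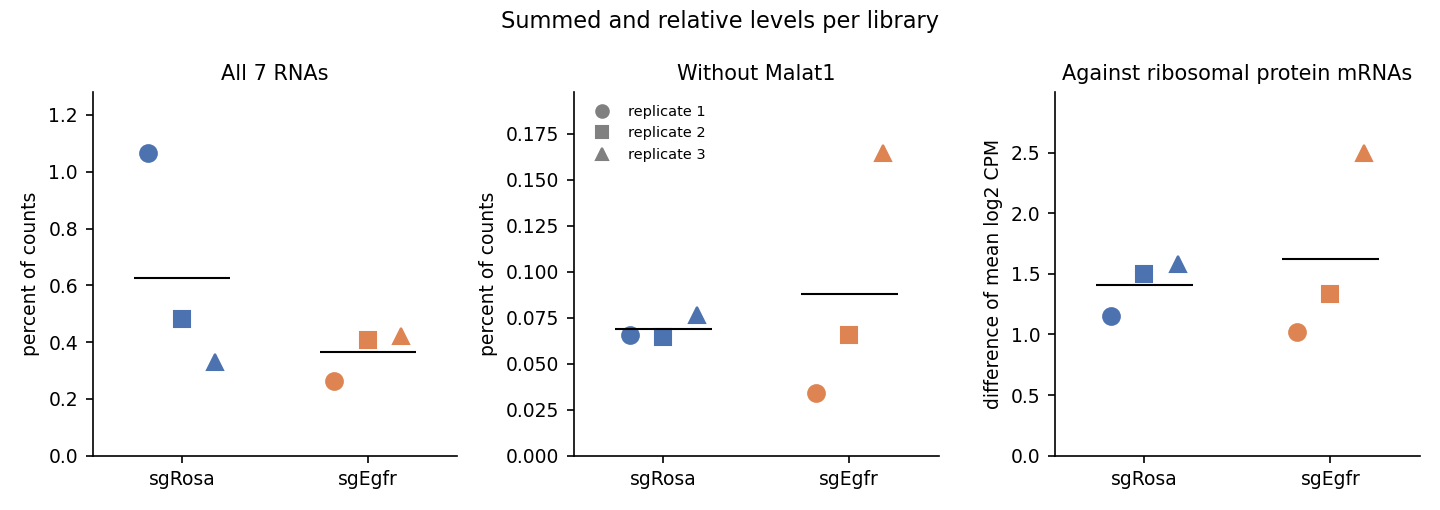
Share of all counts taken by the 7 RNAs (left) and by the 6 other than Malat1 (middle), in percent, and the mean log2 CPM of the 6 tested RNAs minus that of ribosomal protein genes (right), per library with group means as lines. The highest library is sgRosa replicate 1 on the left (1.07%) and sgEgfr replicate 3 in the other panels (0.165% and 2.50).

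Other genes of nuclear RNA biology were counted in lists of related genes. Of 12 tested long noncoding RNAs described in the nucleus, 4 had positive and 8 negative log2 fold changes (median -0.22), and 0 passed. Tug1, a long noncoding RNA found in both compartments, had the smallest p. It was at 340, 799 and 274 CPM in sgRosa and at 1035, 981 and 1141 CPM in sgEgfr, so every sgEgfr library was above every sgRosa library, as in 5.8% of all genes tested. Its log2 fold change was 1.16 (SE 0.44; unadjusted p = 0.0296, edgeR adjusted p = 0.781). Pvt1 was at -0.81 (SE 0.34; edgeR adjusted p = 0.781) and Sox2ot at -0.85 (SE 0.58), both with overlapping groups. Xist, expressed from the inactive X chromosome of females, had at most 7 counts in any library.

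Of 11 tested snoRNA host genes whose spliced RNA reaches the cytoplasm, where it is decayed during translation, 10 had negative log2 fold changes (median -0.59), beside 53.7% of all genes tested, and 0 passed. Gas5 was at 216, 129 and 72.6 CPM in sgRosa and at 74.6, 81.2 and 76.0 CPM in sgEgfr (log2 fold change -0.85, SE 0.38; edgeR adjusted p = 0.781). Its 3 sgEgfr libraries agreed closely, at the level of the lowest sgRosa library. Snhg8 was at -1.20 (SE 0.55) and Snhg20 at -0.75 (SE 0.38). These host genes, like the ribosomal protein genes, were highest in sgRosa replicate 1 (mean 3.78 log2 CPM, against 2.60 to 3.19 in the other 5). Snhg11, with 0.73, differed in sign from 10 of these 11, but it was -0.32 without sgEgfr replicate 3 and -0.19 by limma-voom.

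Genes of the RNAs' protein partners had log2 fold changes of both signs. Of 14 tested paraspeckle protein genes 8 were positive and 6 negative (median 0.03), and 0 passed. Every sgEgfr library was above every sgRosa library in 2 of the 14 (Dazap1 and Taf15), beside 5.8% of all genes tested. The reverse held in 1, beside 7.6% of all genes. Dazap1 had the smallest p, at 19.4, 24.6 and 17.6 CPM in sgRosa and 27.3, 33.7 and 31.6 CPM in sgEgfr (log2 fold change 0.59, SE 0.23, edgeR adjusted p = 0.781). Taf15 was at 0.75 (SE 0.35) and Sfpq, a core paraspeckle protein gene, at 0.33 (SE 0.24). Of 20 nuclear speckle and splicing factor genes 12 were positive and 8 negative (median 0.08), and 0 passed. Srsf5 was at -0.57 (SE 0.32), Srsf7 at -0.52 (SE 0.30) and Srsf1, a splicing factor found in speckles, at 0.43 (SE 0.26). Messenger RNAs partly kept in the nucleus by detained introns, a group that also holds Srsf5 and Srsf7, were positive in 4 and negative in 8 of 12 (median -0.09), with Luc7l2 at 0.41 (SE 0.31), and 0 passed.

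**Figure D5:**
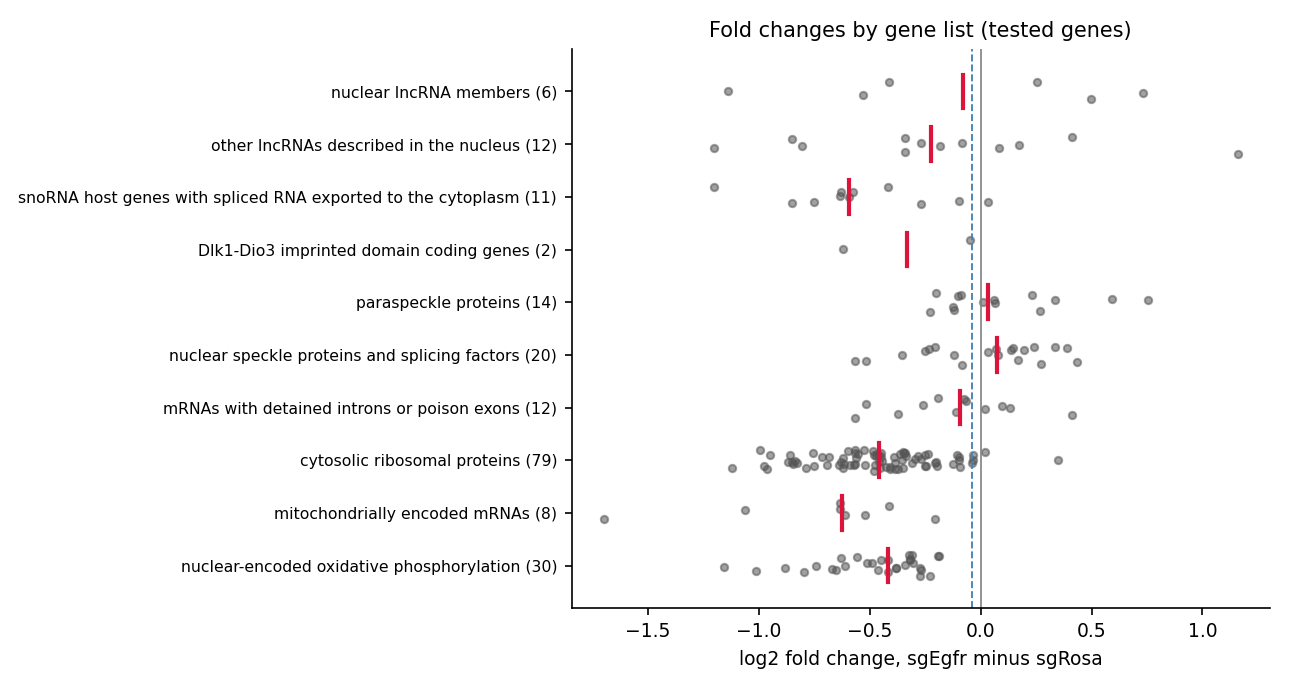
Log2 fold change (sgEgfr minus sgRosa) of every tested gene of 10 lists, 1 point per gene with the number tested in brackets; red bars are list medians, the dashed line is the median of all genes tested (-0.04) and vertical scatter has no meaning. The nuclear RNAs spread on both sides of 0, while ribosomal protein (median -0.46), oxidative phosphorylation (-0.42) and snoRNA host genes (-0.59) lie mostly below it.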

How the data were processed

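The authors deposited raw read counts per gene for each library, with no normalization; a table of the whole series held the same values, and its 3 columns that match no sample were not used. The submitters' processing notes name STAR 2.7.5c, featureCounts 2.0.1 and fastp 0.23.2, with MultiQC 1.11, FastQC 0.11.9, edgeR 3.42.4 and the build mm10. Annotation, strand setting and order of steps are not given in the sources used here. By the labels' protocols, libraries were made from 5 ng of RNA.

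Genes passing filterByExpr (minimum count 10, minimum total 15; 13159 of 35976) were scaled by TMM and compared by quasi-likelihood in edgeR 4.0.16 under R 4.3.3 (robust dispersions), Benjamini-Hochberg adjusted over all of them, threshold 0.05. Each SE is the log2 fold change over the root of its F, and log2 CPM used a prior count of 2. The fit was tested on simulated data. Alternatives were other scalings and filters, DESeq2 1.42.0, limma-voom (limma 3.58.1), a replicate block, marker and mitochondrial adjustments and left-out libraries.

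The RNAs and the 17 gene lists were chosen with earlier results of these data known. Genes named were the 7 RNAs, Egfr and Rbfox3, up to 3 genes per list by smallest p, and 2 genes per closest pattern; Rtl1, Dio3 and Xist were added after their values were seen. Positions and transcripts come from GENCODE (GRCm38), domain rows from RefSeq (GRCm38.p6). No library pair agreed within sampling noise (lowest chi-square per degree of freedom 9.53).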

Additional observations from a re-analysis of the deposited data

How the results depend on the processing

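The 6 tested members were refitted under 18 alternatives, and no adjusted p passed the threshold; Mirg could be fitted only without the filter on low counts, and DESeq2 gave no adjusted p for Miat. Of these alternatives, the legacy quasi-likelihood fit was chosen after seeing the data. The 2 libraries left out for choroid plexus RNA were picked by their marker levels in these data. Malat1 and Rian kept a negative sign in all of them. Genes past the threshold numbered 33 by DESeq2 (31 higher, 2 lower) and 0 by edgeR and limma-voom. By limma-voom Miat was at -0.24 and Snhg11 at -0.19. With the pan-neuronal covariate Neat1 was at 0.20, Meg3 at -0.36 and Miat at -0.73. Without both libraries high in choroid plexus markers Meg3 was at 1.13, Miat at 1.43 and Snhg11 at 1.17, on the same side of the threshold. Over single left-out libraries the log2 fold change lay between -0.87 and 0.93 for Meg3, between -0.97 and 1.05 for Miat and between -0.32 and 1.17 for Snhg11, and the members' median between -0.79 and 0.20. The share difference was 0.0191 percentage points with Malat1 left out of the sum, since Malat1 is most of it; the cause of the other changes was not tested. The labels name no pairs, so the replicate numbers were not taken as pairs in the main fit. Deviations of same-numbered libraries had correlations over genes of -0.03, 0.48 and 0.28 for numbers 1, 2 and 3. Of 6 libraries, 4 were closest to their own number, so a shared effect of the number is not excluded. With the replicate number as a block, 0 genes and 0 members passed, and Malat1 was at -0.80, Meg3 at 0.01 and Rian at -0.54. Depth limits Mirg and Miat, with 2 to 10 and 11 to 149 counts per library.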
